A study of Mus musculus with 23 samples.

Results

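The Toll-like receptor genes of mouse macrophages and monocytes were followed here by the open chromatin around them. The 10 genes are Tlr1, Tlr2, Tlr3, Tlr4, Tlr5, Tlr6, Tlr7, Tlr8, Tlr9 and Tlr13. Peaks of all 23 libraries that overlapped were merged into 155137 regions, and a region was counted as a TLR region when the nearest of 21631 protein-coding gene bodies within 50 kb was one of these genes. This gave 128 TLR regions. The assay was ATAC-seq, in which a transposase cuts and tags DNA where chromatin is open, so a peak reports accessibility and not RNA or protein. The nearest gene need not be the gene that a region acts on. In the text, a level is the Normalized Tag Count that the authors deposited for a peak, which is the number of tags in it scaled to 10000000 tags per library, and a region without a peak was below the peak caller's threshold and was not shown to be closed.

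The 23 libraries form 11 groups in 4 experiments. In the repopulation experiment, liver cells labelled RLM came from Clec4f-cre/Rosa26iDTR mice 24 h (3 libraries) or 48 h (2 libraries) after diphtheria toxin, a treatment that removes cells in which the Clec4f promoter has driven Cre and so switched on the toxin receptor. Cells labelled KC, the usual short form for Kupffer cell, came from mice of the same genotype given PBS (2 libraries), and Ly6C-high blood monocytes came from C57BL/6J mice (2 libraries), so blood differed from the liver groups in genotype as well as in tissue. In the Nr1h3 experiment, TIM4-negative and TIM4-positive cells of Nr1h3 flox/flox Clec4f-cre +/- mice (knockout, 2 libraries each) were set against TIM4-positive cells of Nr1h3 flox/flox mice (control, 2 libraries). Nr1h3 encodes the nuclear receptor LXRα. In the Smad4 experiment, 2 libraries titled knockout were set against 2 titled control. Smad4 encodes the shared partner of the SMAD proteins that carry TGF-β and BMP signals. The titles and the strain labels of the Smad4 libraries contradict each other on which pair is Smad4 flox/flox Clec4f-cre +/- and which is Smad4 flox/flox. The names in the peak files' headers match the titles, which were followed, and every Smad4 direction below turns round if the strain labels are right. In the culture experiment, bone marrow-derived macrophages (BMDM) of C57BL/6J mice after 4 days in culture were exposed to the Notch ligand DLL4 for 24 h (2 libraries) or left untreated (2 libraries). Apart from the repopulation libraries, whose titles name single mice, nothing in the labels says that libraries came from separate animals or cultures, so p-values measure the spread between these libraries, which may be technical.

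Toll-like receptors recognise microbial products and start inflammatory gene expression. Tlr2 pairs with Tlr1 or Tlr6 to bind bacterial lipopeptides, Tlr4 binds lipopolysaccharide together with Ly96 and Cd14, and Tlr5 binds flagellin. These 5 receptors sit at the cell surface. Tlr3 (double-stranded RNA), Tlr7 and Tlr8 (single-stranded RNA), Tlr9 (DNA with unmethylated CpG) and Tlr13 (bacterial ribosomal RNA) signal from endosomes. All signal through the adaptor Myd88 except Tlr3, which uses Ticam1, and Tlr4 uses both adaptors. Kupffer cells line the liver sinusoids and meet bacterial products that reach the liver in portal blood.

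The sequence before 4 of the gene starts is shown because the start regions behaved differently: the starts of Tlr9 and Tlr13 carried a peak in all 23 libraries, that of Tlr8 in 19, and that of Tlr5 in none. The sequences are from RefSeq (GRCm38.p6), run 5′ to 3′ on the strand of the gene, end at the last base before the annotated gene body, and carry matches to 6 motifs in capitals. They lie at chr9:106222348-106222597 (plus strand) for Tlr9, chrX:167264330-167264579 (minus strand) for Tlr8, chrX:106143025-106143274 (plus strand) for Tlr13 and chr1:182954538-182954751 (plus strand) for Tlr5.
Tlr9: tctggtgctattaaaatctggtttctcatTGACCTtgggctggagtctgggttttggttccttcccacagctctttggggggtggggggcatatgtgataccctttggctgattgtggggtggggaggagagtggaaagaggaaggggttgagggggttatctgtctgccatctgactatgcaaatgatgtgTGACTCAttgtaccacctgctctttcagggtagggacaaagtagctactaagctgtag
Tlr8: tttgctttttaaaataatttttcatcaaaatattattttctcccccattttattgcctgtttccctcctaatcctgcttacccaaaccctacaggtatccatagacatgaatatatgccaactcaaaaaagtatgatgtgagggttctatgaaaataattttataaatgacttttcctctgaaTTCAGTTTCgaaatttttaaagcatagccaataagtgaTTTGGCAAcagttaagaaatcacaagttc
Tlr13: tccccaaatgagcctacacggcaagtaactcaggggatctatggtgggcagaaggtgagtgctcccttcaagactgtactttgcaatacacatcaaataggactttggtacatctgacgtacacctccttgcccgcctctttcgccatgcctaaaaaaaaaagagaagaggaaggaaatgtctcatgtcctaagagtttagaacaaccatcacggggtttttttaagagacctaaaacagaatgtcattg
Tlr5: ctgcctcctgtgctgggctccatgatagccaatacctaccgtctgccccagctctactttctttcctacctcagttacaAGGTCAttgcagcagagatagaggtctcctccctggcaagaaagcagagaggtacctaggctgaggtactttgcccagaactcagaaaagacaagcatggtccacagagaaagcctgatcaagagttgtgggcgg

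The motifs were searched on both strands, and none of the capitals above belongs to more than 1 motif. GGAAGT (the PU.1/ETS core) occurs in 19.8% of the 32619 RefSeq windows of 250 bases before a start, TGANTCA (AP-1) in 6.78%, TTGCNNAA (C/EBP) in 9.62%, GAAANNGAA (IRF/ISRE) in 7.17%, GGANTTTCC (NF-kB) in 1.07% and AGGTCA (nuclear receptor hexamer) in 14.1%. AGGTCA is a single hexamer and not a full nuclear receptor site. The window of Tlr9 holds an AP-1 match that begins 58 bases before the start and an AGGTCA match. That of Tlr8 holds an IRF/ISRE match and a C/EBP match, the printed bases of Tlr5 hold an AGGTCA match, and the window of Tlr13 holds none of the 6 motifs. A match describes letters only and is no evidence of binding.

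Depth and cell markers were as follows for all groups. The libraries held 10431396 to 18358419 tags, 15.41 to 54.74% of them in peaks, and 48775 to 104206 peaks each, with a threshold of 8 to 11 tags for a peak. Of 8 Kupffer cell marker genes, all had a peak in each library of KC, Nr1h3 controls, TIM4-positive Nr1h3 knockouts and libraries titled Smad4 control. Clec4f, Timd4 and Marco had no peak in blood or in RLM at 24 h or 48 h, Timd4 had none in TIM4-negative knockouts, and Clec4f had none in libraries titled Smad4 knockout or in BMDM. Of 5 hepatocyte marker genes, Alb and Ttr had no peak in any group, while Apoa1, Apob and Cps1 each had peaks in some groups. The hepatocyte list had a summed level of 12.2 to 26.1 in blood and 30.0 to 59.0 in RLM at 24 h. At 48 h it had 39.6 to 56.6 and in KC 26.8 to 31.3, and its part was not tested. Of 5 liver endothelial marker genes, 4 or more had peaks in every library, blood included. The endothelial genes' summed level ran from 425 to 607 in blood, 420 to 537 in RLM at 24 h, 820 to 923 at 48 h and 1150 to 1310 in KC, and its part in the results was not tested. The dendritic cell list had a summed level of 1220 to 1610 in blood and 683 to 700 in RLM at 24 h. It had 642 to 698 at 48 h and 350 to 389 in KC. The T and NK cell list had 128 to 136 at 48 h and 32.2 to 55.7 in KC. The part of these 2 lists was not tested either. Some other lists stand beside the comparisons, and not every list that moved is given. Peaks do not show whether a floxed exon was deleted: 3 of the 4 regions in the Nr1h3 gene body had a peak in all 6 libraries of that experiment, and 1 region of the Smad4 gene body had a peak in all 4 libraries of its own.

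The TLR regions were spread unevenly over the 10 genes and the groups. All 23 libraries had a peak at 31 of 128 TLR regions (24.2%), against 17.2% of all regions, and in 1 library at 18 (14.1%), against 16.7%. Inside a gene body lay 44 TLR regions (34.4%), against 60.1% of all regions. All regions include those without a gene within 50 kb, which no TLR region can be. Among regions with a gene within 50 kb the shares were 18.1% (all 23 libraries), 16.3% (1 library) and 67.8% (in a gene body). The counts were 25 regions for Tlr4, 17 for Tlr5, 16 each for Tlr1 and Tlr7, 14 for Tlr2, 13 for Tlr13, 12 for Tlr8, 9 for Tlr3 and 3 each for Tlr6 and Tlr9, where the median gene with a region had 5. The surface genes had 75 regions and the endosomal genes 53. A region goes to the nearest gene, so a close neighbour can limit a gene's count. The next gene lay 383.8 kb or more from every Tlr4 region. From the Tlr9 and Tlr6 regions it lay 7.0 to 7.7 kb and 8.6 to 9.8 kb away. For Tlr7 and Tlr13, which had more regions, the closest such distance was 8.0 and 7.8 kb. The part of neighbour distance in the counts was not tested. With a peak in every library of the group, 81 TLR regions were open in BMDM with DLL4 and 81 in untreated BMDM. The repopulation groups had 65 (blood), 62 (24 h), 73 (48 h) and 60 (KC). The Nr1h3 groups had 67 (TIM4-negative knockout), 48 (TIM4-positive knockout) and 62 (control), and libraries titled Smad4 knockout and control had 45 and 56. The share of tags in peaks moved with these counts and its part in them was not tested: the Smad4 libraries had 15.41 to 25.23% of tags in peaks and the BMDM libraries 48.33 to 54.74%. RLM at 24 h had 3 libraries and every other group 2, so a peak in every library was a stricter rule there. With a peak in at least 1 library, a looser rule for 3 libraries, the counts were 85 (blood), 89 (24 h), 89 (48 h) and 84 (KC).

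**Figure D1:**
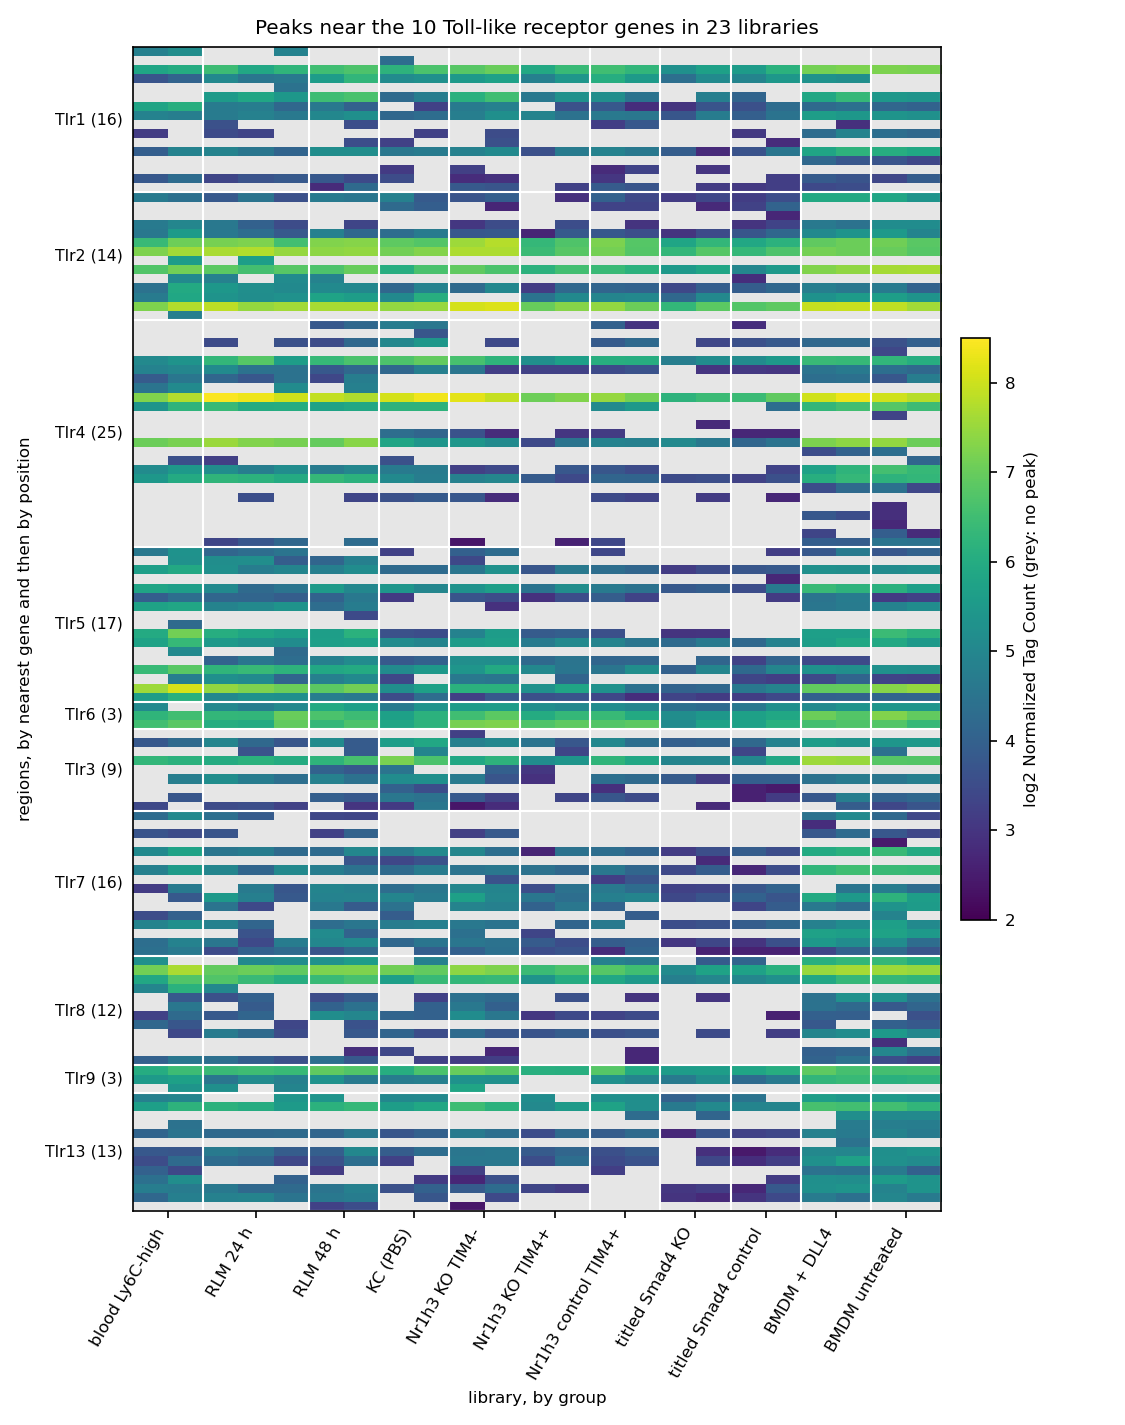
Level of every TLR region in every library, as log2 Normalized Tag Count on the colour scale, with regions as rows by nearest gene and libraries as columns by group; grey means no peak. Of the 128 rows, 31 are coloured in all 23 columns and 18 in a single column.

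Among the surface receptors, Tlr4 and Tlr2 carried the highest levels of the set. The strongest TLR region, chr4:66827422-66827775, covers the low-coordinate end of the Tlr4 gene body. Its level was 155.5 and 215.7 in blood, 352.9, 324.1 and 263.7 in RLM at 24 h, 240.5 and 213.4 at 48 h, and 269.2 and 328.8 in KC. It had 73.7 and 86.2 in libraries titled Smad4 knockout and 86.0 and 120.3 in libraries titled control, and its mean over 23 libraries was 215. For Tlr2 the strongest region, chr3:83862991-83863342, lies 21.2 kb before the gene body with a mean of 183, and its start region, chr3:83841515-83841825, ranged from 78.7 to 215.2 with a median of 141.0. Both Tlr2 regions were open in all 23 libraries.

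The other surface genes were weaker at their starts than elsewhere. Tlr1 had its strongest region at chr5:64884242-64884588, which lies 40.1 kb past the gene body (mean 89.6, all 23 libraries) and 51.3 kb from the next gene, Klf3. Its start region, chr5:64933442-64933708, was open in 16 libraries with a mean of 12.0. Tlr6 had all 3 of its regions inside the gene body, with the strongest at chr5:64961207-64961490 (35.2 to 150.3, median 93.7) and a start region at chr5:64959995-64960236 in 22 libraries. The second annotated start of Tlr6 had no peak. Tlr5 had no peak over its listed start in any library, and the closest region, chr1:182955151-182955441 inside the gene body, had a peak in 2 libraries, 1 of blood (33.1) and 1 of RLM at 24 h (19). The closest region before the gene body, chr1:182953717-182953991 at 761 bp, ranged from 18.2 to 81.8 in all 23 libraries. The strongest Tlr5 region, chr1:182983018-182983312, lies 7.0 kb past the gene body and had a mean of 97.1.

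Of the endosomal receptors, Tlr3, Tlr8 and Tlr13 had their strongest region outside the gene body, and Tlr9 had it over its start. Tlr8 had its strongest region at chrX:167229280-167229622, which lies 11501 bp past the gene body and 15.8 kb from the next gene, Tmsb4x. Levels there ranged from 34.6 to 203.7 with a median of 132.6. The Tlr8 start, chrX:167264058-167264381, had a median of 13.9 and was highest in BMDM, with 31.2 and 35.6 under DLL4 and 46.1 and 32.4 without. Tlr9 was open over its start, chr9:106222403-106222702, at 48.0 to 126.1 in all 23 libraries. Tlr3 had its strongest region, chr8:45415032-45415305, 4.0 kb before the gene body, and a start region at chr8:45410097-45410499, both in all libraries. The strongest Tlr13 region, chrX:106136230-106136633, lies 6642 bp before the gene body (25.7 to 98.1) and 8.1 kb from the next gene, Atp7a. The Tlr13 start region, chrX:106142975-106143311, ranged from 6.7 to 30.1. For Tlr7 the strongest region depended on which libraries were averaged. The region chrX:167332929-167333254 had a mean of 33.1 over the 9 libraries with a peak, 4 of them BMDM. The region chrX:167318838-167319124 inside the gene body had a mean of 32.9 over all 23 and reached 90.3, with 77.0 and 90.3 in BMDM with DLL4 and 85.4 and 82.3 in untreated BMDM, and the region over the high-coordinate gene end, chrX:167330466-167330714, was open in 20.

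Each comparison below was tested with limma on log2(Normalized Tag Count + 1), centred on the median of each library, in all regions with a peak in every library of both groups. Adjusted p-values are Benjamini-Hochberg values over all those regions with a threshold of 0.05, and fold changes are on that log2 scale with a standard error (SE). The pseudocount understates the fold of low regions. Because of the centring, a fold change is relative to the median region, and the uncentred median difference is given for each comparison. A region in 1 group only had a peak in every library of that group and in none of the other, which was counted and not tested. The TLR comparison counts stand beside the share of all regions called in the same way.

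The chromatin of Tlr4 was more open in RLM at 24 h than in blood monocytes. The low-coordinate end region of Tlr4 rose, with 352.9, 324.1 and 263.7 in RLM at 24 h and 155.5 and 215.7 in blood, and the groups did not overlap (log2 fold change 1.03, SE 0.13, adjusted p = 7.2e-07). A region 30.5 kb on the low-coordinate side of the gene, chr4:66796743-66797020, had 79.6, 109.9 and 49.3 at 24 h against 33.4 and 40.2 in blood (1.29, SE 0.27, adjusted p = 0.00057). Its nearest other gene body, Astn2, is 392.2 kb away. Inside the gene, chr4:66843328-66843569 rose by 0.46 (SE 0.16), and chr4:66857046-66857404, at 10.5 kb on the high-coordinate side, by 0.69 (SE 0.23), although the levels of the groups overlapped at both. Of 8 Tlr4 regions tested, 4 rose and 0 fell. For Tlr2, 3 of 9 tested regions rose, by 0.40 to 0.50, and in each of the 3 the levels of the groups overlapped.

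Near Tlr1 the regions moved in both directions. A region 39.3 kb past the gene body, chr5:64885058-64885394, had 32.8, 23.6 and 24.7 in RLM at 24 h and 13 and 16.9 in blood (1.08, SE 0.32, adjusted p = 0.014). A region at 27.8 kb, chr5:64896642-64896927, had 26.2, 27.2 and 18.0 at 24 h against 55.3 and 67.7 in blood, and it fell (-1.08, SE 0.29, adjusted p = 0.0067). Between them, at 37.2 kb, chr5:64887091-64887477 had 46.8, 57.2 and 43.6 at 24 h and no peak in either blood library. Of the endosomal genes, 0 of 17 tested regions passed in either direction.

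Over the whole set, 8 of 52 tested regions were higher and 1 was lower in RLM at 24 h than in blood, where 16.7% and 9.33% of all tested regions were higher and lower. The median log2 fold change was 0.09 over the TLR regions and 0.09 over all regions. In 1 group only there were 3 regions at 24 h and 2 in blood among 95 with a peak, against 3.02% and 4.49% of all regions. The 2 others at 24 h were chr1:182959134-182959505 in Tlr5 (16.9, 23.6 and 19.9) and chr4:66894619-66894972 near Tlr4 (10.3, 13.6 and 18.0). Those in blood were chrX:106151273-106151565 in Tlr13 (16.3 and 10.6) and chrX:167329656-167329879 in Tlr7 (11.4 and 16.2). The uncentred median difference was -0.27, and without centring 2 regions were higher and 2 lower, while quantile normalization gave 4 and 2. Without blood replicate 1 or replicate 2 the calls were 2 each time, the Tlr4 end and the region at 30.5 kb, without RLM 24 h replicate 1 they were 5, and without RLM 24 h replicate 2 they were 6. At 2 of the 5 group-only regions, those in Tlr5 and Tlr7, the other group had a peak less than 1 kb away. The group-only count of 5 became 11 without RLM 24 h replicate 3, 11 without blood replicate 1 and 10 without blood replicate 2.

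Between 24 h and 48 h the Tlr4 end fell and 2 Tlr1 regions rose. The low-coordinate end region of Tlr4 had 240.5 and 213.4 at 48 h against 352.9, 324.1 and 263.7 at 24 h, with no overlap (-0.62, SE 0.13, adjusted p = 0.0081). The Tlr1 region at 39.3 kb had 47.9 and 77.7 at 48 h against 32.8, 23.6 and 24.7 at 24 h (1.00, SE 0.29, adjusted p = 0.042). The Tlr1 region at 37.2 kb had 89.8 and 99.0 at 48 h against 46.8, 57.2 and 43.6 at 24 h (0.77, SE 0.22, adjusted p = 0.043). No other of the 57 tested regions passed, so 2 were higher and 1 lower, against 1.92% and 3.53% of all regions, with a median of -0.04 over TLR regions and -0.08 over all.

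Peaks that were present at 1 of these times only were near Tlr1, Tlr3, Tlr4, Tlr5 and Tlr13. They were present at 48 h only in 5 regions and at 24 h only in 1 of 99, against 5.09% and 0.609% of all regions. At 48 h these were 1 near Tlr1, 2 near Tlr3, 1 near Tlr13 and chr4:66788320-66788547, which lies 39.0 kb on the low-coordinate side of Tlr4 (13.9 and 18.3). At 24 h it was chr1:182927887-182928190, 26562 bp before Tlr5 (17.8, 20 and 22.8), and at 4 of the 6 the other time had a peak less than 1 kb away. Before centring the median difference was 0.16. Without centring 2 regions were higher and 0 lower, since the Tlr4 end no longer passed, and quantile normalization left 0 calls. The 3 calls became 1, the Tlr4 end, without RLM 48 h replicate 1 or without RLM 24 h replicate 1 or 2, and 0 without RLM 48 h replicate 2. The group-only count of 6 became 10 and 11 without RLM 48 h replicate 1 and 2.

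KC differed from RLM at 48 h at Tlr4, Tlr5, Tlr1 and Tlr3. Around Tlr4 the regions moved in both directions. The low-coordinate end had 269.2 and 328.8 in KC against 240.5 and 213.4 at 48 h (0.67, SE 0.15, adjusted p = 0.00064). Regions at 33.8 kb and 39.0 kb on the low-coordinate side rose as well. The first, chr4:66793461-66793741, had 32.2 and 43.1 in KC and 11.3 and 18.3 at 48 h (1.59, SE 0.33, adjusted p = 0.00021). The second had 26.5 and 24.0 in KC and 13.9 and 18.3 at 48 h (0.91, SE 0.34, adjusted p = 0.037). By contrast the region inside the gene at chr4:66843328-66843569 fell, with 55.9 and 42.2 in KC and 123.8 and 162.1 at 48 h (-1.24, SE 0.21, adjusted p = 9.8e-06). The region at 10.5 kb on the high-coordinate side had 34.1 and 26.8 in KC and 80.2 and 71.9 at 48 h (-1.02, SE 0.26, adjusted p = 0.0026). In all, 5 of 9 tested Tlr4 regions rose and 2 fell.

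For Tlr5, the flagellin receptor, 7 of 8 tested regions had a negative fold change in KC against 48 h and 2 passed. The region 7.0 kb past the gene had 37.0 and 51.8 in KC and 115.9 and 138.6 at 48 h (-1.23, SE 0.21, adjusted p = 1.3e-05). A region 3.1 kb before the gene, chr1:182951331-182951632, had 12.3 and 11.5 in KC and 49.7 and 71.1 at 48 h (-1.95, SE 0.32, adjusted p = 4.3e-06). Also lower was the Tlr1 region at 37.2 kb, with 19 and 26.8 in KC and 89.8 and 99.0 at 48 h (-1.73, SE 0.26, adjusted p = 6.7e-07).

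All 4 tested Tlr3 regions rose in KC against 48 h, by 0.79 to 1.50. The start region had 49.3 and 59.4 in KC and 34.9 and 14.7 at 48 h (1.50, SE 0.31, adjusted p = 0.00024). A further 2, chr8:45439213-45439524 and chr8:45452705-45453042, lie 28.1 kb and 41.6 kb before the gene body and rose by 0.83 (SE 0.31) and 0.88 (SE 0.34). No region of Tlr7, Tlr8, Tlr9 or Tlr13 passed.

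Of 52 tested regions, 9 were higher and 5 lower in KC than at 48 h, where 13.7% and 12.6% of all regions were higher and lower, with a median of -0.15 over TLR regions and -0.01 over all. A peak was present in KC only in 3 regions and at 48 h only in 8 of 100, against 4.53% and 12.8% of all regions. In KC these were near Tlr2, Tlr3 and Tlr4 with levels of 11.5 to 19.9. At 48 h they were 2 near Tlr5, 3 near Tlr7 and 1 each near Tlr1, Tlr4 and Tlr13, among them the Tlr7 region at chrX:167332929-167333254 (34.9 and 16.9), the Tlr4 region 5475 bp on the low-coordinate side (10.5 and 27.1) and chr1:182944738-182944977 before Tlr5 (20 and 26.4). The uncentred median difference was -0.28, and without centring 3 regions were higher and 9 lower, since the Tlr3 regions other than the start and 3 of the Tlr4 regions no longer passed. The 14 calls became 9 without KC replicate 1 or without RLM 48 h replicate 1 and 8 without RLM 48 h replicate 2. Passing without each library in turn were 5: both Tlr5 regions, the Tlr4 regions at 33.8 kb and inside the gene, and Tlr1 at 37.2 kb. At 4 of the 11 group-only regions the other group had a peak less than 1 kb away. The group-only count of 11 became 20, 23, 18 and 17 without KC replicate 1, KC replicate 2, RLM 48 h replicate 1 and RLM 48 h replicate 2.

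**Figure D2:**
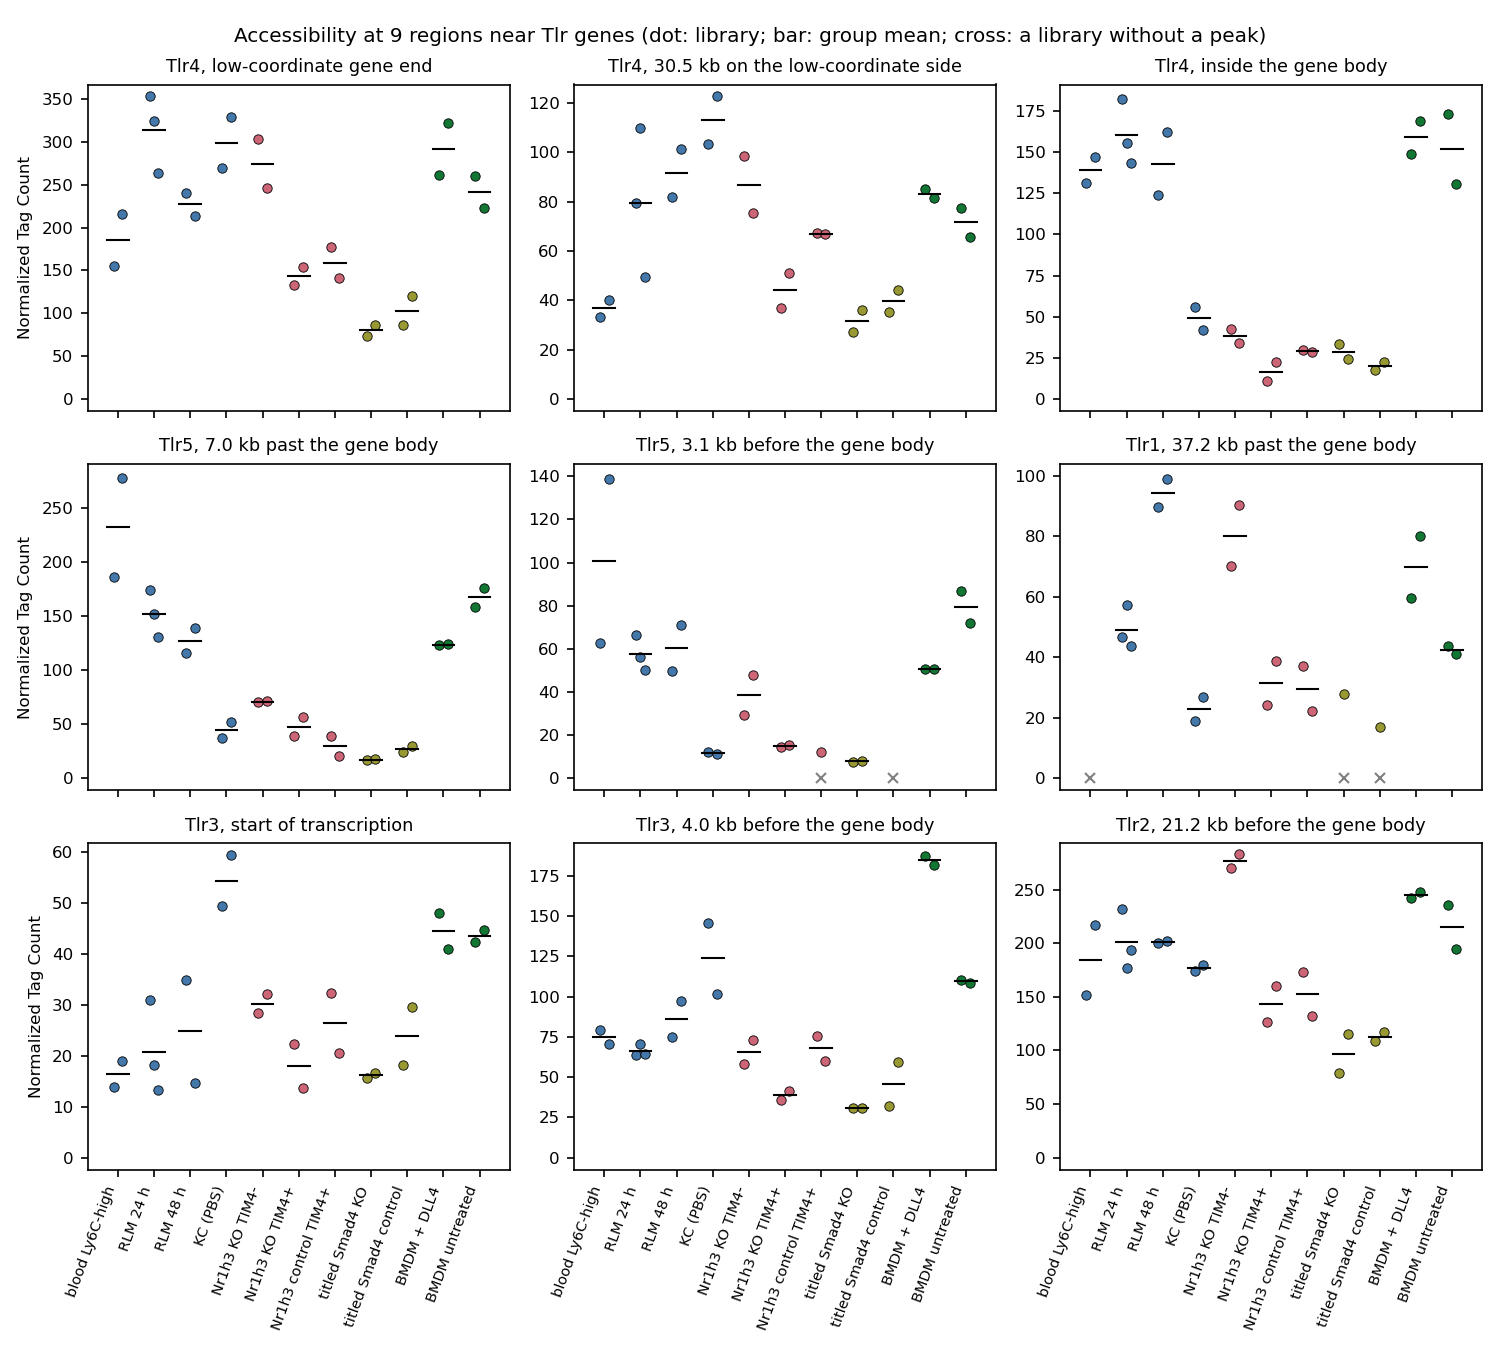
Normalized Tag Count of 9 TLR regions in each library (dots), with groups on the horizontal axis, the mean as a bar where every library of the group had a peak, and a cross at 0 where 1 or more had none. Regions of Tlr5 are high in blood, RLM and BMDM and low in KC, where the region 3.1 kb before the gene had 12.3 and 11.5.

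Set against blood monocytes, KC were lower at 5 Tlr5 regions and higher at 2 Tlr3 regions, while Tlr4 regions moved in both directions. Both comparisons of KC use the same KC libraries, and their values are given side by side. All 7 tested Tlr5 regions had a negative fold change and 5 fell. The region 7.0 kb past the gene had 37.0 and 51.8 in KC against 186.4 and 277.7 in blood (-1.96, SE 0.20, adjusted p = 1.8e-13). The region 3.1 kb before it had 12.3 and 11.5 in KC and 62.7 and 138.8 in blood (-2.48, SE 0.31, adjusted p = 3.5e-10). These were the 2 largest decreases in the set. At chr1:182990948-182991246, which lies 14.9 kb past the gene, the levels were 11.4 and 20.1 in KC and 48.8 and 69.8 in blood (-1.48, SE 0.32, adjusted p = 6.8e-05). At chr1:182928547-182928832, 25.9 kb before it, they were 19 and 19.2 in KC and 49.7 and 60.6 in blood (-1.08, SE 0.31, adjusted p = 0.0023). A further Tlr5 region at chr1:182944738-182944977 had 53.7 and 57.8 in blood and no peak in KC. The reverse held for chr1:182959134-182959505 inside Tlr5, with 14.2 and 16.3 in KC and no peak in blood. A blood peak lay less than 1 kb from it.

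For Tlr4, 3 of 7 tested regions rose and 1 fell. The region 30.5 kb on the low-coordinate side had 103.3 and 122.7 in KC and 33.4 and 40.2 in blood (1.99, SE 0.23, adjusted p = 4.2e-11). The low-coordinate end had 269.2 and 328.8 in KC and 155.5 and 215.7 in blood (1.09, SE 0.15, adjusted p = 1.4e-08). The region inside the gene at chr4:66843328-66843569 had 55.9 and 42.2 in KC and 131.0 and 147.3 in blood (-1.10, SE 0.22, adjusted p = 1.6e-05). In KC only there were 4 Tlr4 regions, which included those at 33.8 kb and 39.0 kb, and in blood only there were 2, chr4:66821814-66822076 (14.7 and 23.3) and chr4:66822557-66822764 (22.8 and 34.5), which also lie on the low-coordinate side, at 5475 and 4787 bp.

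Both tested Tlr3 regions rose in KC against blood. The start had 49.3 and 59.4 in KC and 13.8 and 19 in blood (2.07, SE 0.31, adjusted p = 7.7e-08). The region 4.0 kb before the gene had 146.0 and 101.6 in KC and 79.0 and 70.5 in blood (1.09, SE 0.21, adjusted p = 1.5e-05). The Tlr1 region at 39.3 kb had 35.1 and 38.3 in KC and 13 and 16.9 in blood (1.64, SE 0.33, adjusted p = 2.9e-05). Of the remaining 7 calls, 6 were higher by 0.48 to 0.92, at Tlr1, Tlr2, Tlr4, Tlr7 and Tlr9, and 1 at Tlr5 was lower by a log2 fold change of -0.90. At all of these 6 but the Tlr1 region, the levels of the groups overlapped before centring.

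Of 45 tested regions, 11 were higher and 6 lower in KC than in blood, where 25.7% and 25.3% of all regions were higher and lower, with a median of 0.01 over TLR regions and 0.00 over all. The share of higher regions was 24.4% and that of lower regions 13.3%. Of the endosomal genes 4 of 17 tested regions were higher and 0 lower, and of the surface genes 7 of 28 were higher and 6 lower. In KC only, a peak was present in 9 regions and in blood only in 10 of 102, against 12.8% and 15.9% of all regions. The KC-only regions were 4 of Tlr4 and 1 each of Tlr1, Tlr2, Tlr3, Tlr5 and Tlr7. Blood-only regions of the surface genes were 2 of Tlr4 and 1 each of Tlr1, Tlr2 and Tlr5. Blood-only regions of the endosomal genes were 2 of Tlr8, with chrX:167233508-167233718 at 30.9 and 70.5, 2 of Tlr7 and 1 of Tlr13. Before centring the median difference was -0.39, and without centring 3 regions were higher and 7 lower, since 8 of the calls, the Tlr4 end and the Tlr3 region at 4.0 kb among them, no longer passed. Calls numbered 16 to 18 without each library in turn and 12 of the 17 passed every time, among them all those with values above. Marker lists of other cells moved too, and their part was not tested. The summed level of the T and NK cell list was 32.2 to 55.7 in KC and 149 to 173 in blood, with Cd3e, Cd8a and Ncr1 without a peak in both. That of the neutrophil list was 36.4 to 39.8 in KC and 107 to 151 in blood, with Ly6g and Elane without a peak in both, and that of the monocyte list was 404 to 473 in KC and 823 to 1000 in blood. At 5 of the 19 group-only regions the other group had a peak less than 1 kb away. The group-only count of 19 became 30 without KC replicate 2 and 29 without blood replicate 1.

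**Figure D3:**
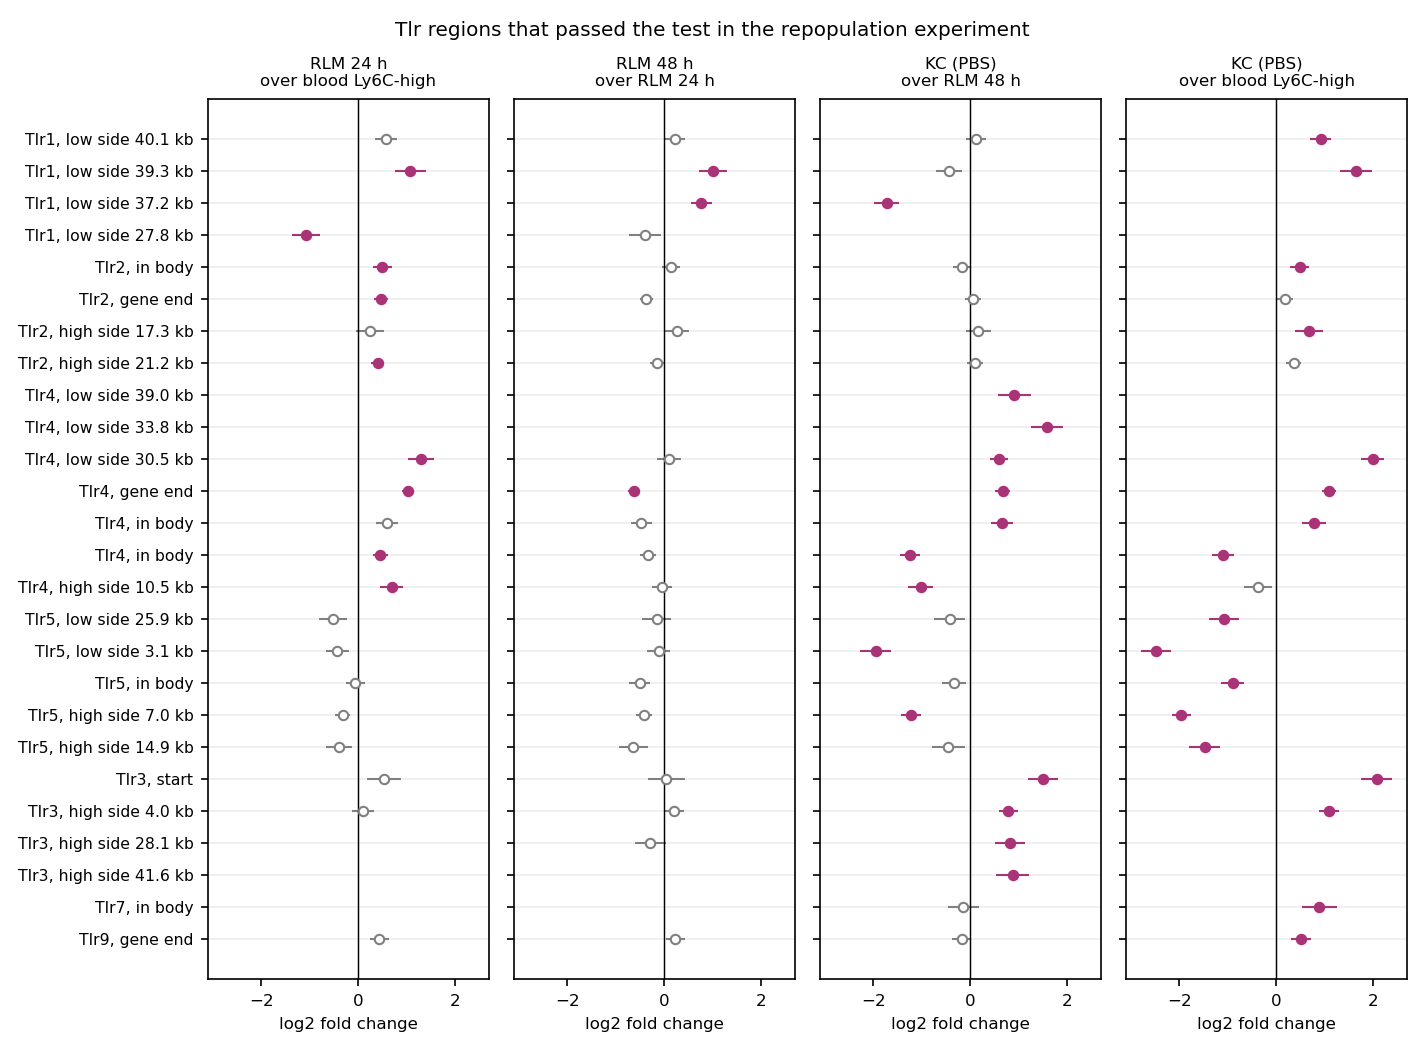
Log2 fold change (horizontal axis, tested over compared group) with SE bars for TLR regions called in at least 1 comparison of the repopulation experiment, labelled by gene and by distance on the low- or high-coordinate side. Filled points passed the adjusted threshold, open points did not, and a missing point was not tested; in KC over blood the Tlr5 points lie between -2.48 and -0.90.

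In the Nr1h3 experiment, TIM4-positive knockout cells differed from controls at a Tlr5 region. The region 7.0 kb past Tlr5 had 38.9 and 56.6 in TIM4-positive knockouts and 38.8 and 21.1 in controls, and it rose (1.00, SE 0.24, adjusted p = 0.0011). It was the single call: 1 of 45 tested regions was higher and 0 were lower by limma, against 4.86% and 3.91% of all regions, while 6 had an unadjusted p under 0.05, and the median was 0.16 over TLR regions and 0.08 over all. Before centring the lower knockout library lay just above the higher control library. A peak was present in the knockouts only in 1 region and in controls only in 10 of 82, against 1.06% and 7.69% of all regions.

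The control-only regions were 4 of Tlr4, 2 of Tlr1 and 1 each of Tlr2, Tlr7, Tlr8 and Tlr9. The strongest were chr4:66828734-66828990, inside Tlr4 near its low-coordinate end (34.7 and 44.9), chr9:106223075-106223331 in Tlr9 (38.2 and 30.4) and chrX:167227244-167227499 past Tlr8 (28.3 and 25.1). The knockout-only region was chrX:106165125-106165419 past Tlr13 (10.2 and 8.87). The knockouts had 48775 and 53972 peaks with 21.92 and 26.58% of tags in them, the controls 65621 and 58395 peaks with 33.35 and 25.98%, and at 4 of the 11 the other group had a peak less than 1 kb away. The summed level of the endothelial list was 398 to 445 in these knockouts, where Stab2 had no peak, and 849 to 1110 in controls, and its part was not tested. With lists cut to equal length, 3 regions were in knockouts only and 3 in controls only. The uncentred median difference was -0.31, and no region passed without centring or without control replicate 2. The count of 11 became 18 without knockout replicate 2 and 17 without control replicate 1.

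TIM4-negative knockout cells, set against the same controls, were higher at Tlr5, Tlr1, Tlr2 and Tlr8 regions. The Tlr5 region 7.0 kb past the gene had 70.7 and 71.4 in TIM4-negative knockouts and 38.8 and 21.1 in controls (0.88, SE 0.22, adjusted p = 0.0017). The Tlr1 region at 37.2 kb had 70.1 and 90.4 in knockouts and 37.0 and 22.4 in controls (1.03, SE 0.22, adjusted p = 8.4e-05). At 27.8 kb from Tlr1 the levels were 25.3 and 28.3 in knockouts and 13.9 and 7.26 in controls (0.92, SE 0.32, adjusted p = 0.033). Before centring, where the median difference was 0.40, none of these 3 overlapped between the groups. The same held for many regions that did not pass. The Tlr2 start was among them, with 209.1 and 208.1 in knockouts and 141.7 and 108.9 in controls.

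A region of Tlr8, chrX:167262778-167263075, inside the gene near its start, had 35.9 and 24.0 in TIM4-negative knockouts and 9.83 and 11.2 in controls (1.00, SE 0.31, adjusted p = 0.016). The strongest Tlr2 region had 270.4 and 283.2 in knockouts and 172.9 and 132.0 in controls (0.47, SE 0.15, adjusted p = 0.016). The Tlr1 region at 39.3 kb fell, with 46.0 and 52.8 in knockouts and 65.9 and 46.9 in controls, which overlap before centring (-0.57, SE 0.21, adjusted p = 0.046). No Tlr4, Tlr3, Tlr7, Tlr9, Tlr13 or Tlr6 region passed.

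Of 52 tested regions, 5 were higher and 1 lower, against 7.03% and 6.68% of all regions, with a median of 0.09 over TLR regions and 0.08 over all. A peak was present in TIM4-negative knockouts only in 6 regions and in controls only in 6 of 93, against 6.60% and 3.50% of all regions. The knockout-only regions were 2 of Tlr13 and 1 each of Tlr3, Tlr5, Tlr7 and Tlr8, with chr1:182961820-182962087 inside Tlr5 at 24.2 and 22.9. The control-only regions included 4 that also had no peak in TIM4-positive knockouts, 2 of Tlr4 and 1 each of Tlr1 and Tlr8, and besides them chr3:83859141-83859412 before Tlr2 (31.2 and 33.0) and chrX:106135934-106136216 before Tlr13 (37.6 and 37.0). Beside this Tlr13 region, the strongest Tlr13 region had 90.1 and 72.4 in the TIM4-negative knockouts. At 4 of the 12 group-only regions the other group had a peak less than 1 kb away. The uncentred median difference was 0.40, and without centring 17 regions were higher and 0 lower, with quantile normalization 4 and 0. The calls became 3, 4, 3 and 3 without knockout replicates 1 and 2 and control replicates 1 and 2, and Tlr1 at 37.2 kb was the single region that passed each time. The count of 12 became 20 without knockout replicate 2 and 20 without control replicate 1.

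The 2 knockout populations gave no call between them. Of 47 tested regions, 0 were higher and 0 lower in TIM4-negative than in TIM4-positive knockouts by limma, against 0.607% and 1.50% of all regions. Without adjustment 6 regions had a p under 0.05, and the median was 0.00 over TLR regions and -0.03 over all. A peak was present in TIM4-negative knockouts only in 9 regions and in TIM4-positive only in 1 of 87, against 10.9% and 0.559% of all regions. The 9 included the second Tlr9 region (39.5 and 38.7) and chrX:167262480-167262732 in Tlr8 (24.2 and 15.8), and the 1 was the region 17.3 kb before Tlr2 (22.3 and 34.1). At 5 of the 10 group-only regions the other group had a peak less than 1 kb away. TIM4-negative libraries had 43.80 and 41.27% of tags in peaks and TIM4-positive ones 21.92 and 26.58%. Before centring the median difference was 0.75, and without centring 30 regions were higher and 0 lower. The group-only count of 10 became 5 with lists of equal length (3 in TIM4-negative only and 2 in TIM4-positive only), and 18, 16 and 21 without TIM4-negative replicate 1, TIM4-negative replicate 2 and TIM4-positive replicate 2.

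In the Smad4 experiment 1 Tlr2 region changed. The region 3.3 kb before the gene body, chr3:83845153-83845548, had 45.2 and 56.4 in libraries titled knockout and 31.5 and 44.8 in libraries titled control (0.75, SE 0.20, adjusted p = 0.020). Of 42 tested regions, 1 was higher and 0 lower by limma, against 1.57% and 1.50% of all regions, 6 had an unadjusted p under 0.05, and the median was 0.02 over TLR regions and 0.07 over all. The 17 tested regions of the endosomal genes gave 0 calls. A peak was present in libraries titled knockout only in 2 regions, near Tlr5 and Tlr2, and in libraries titled control only in 6 of 83, against 1.24% and 6.97% of all regions.

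The 6 were 2 of Tlr3 and 1 each of Tlr2, Tlr4, Tlr5 and Tlr7, all with levels of 5.47 to 14.8. The region near Tlr5 in libraries titled knockout was the one 3.1 kb before the gene (7.81 and 8.06), and that near Tlr2 the one at 17.3 kb (18.4 and 33.5). Libraries titled knockout had 15.41 and 19.60% of tags in peaks and those titled control 19.53 and 25.23%, and with lists of equal length the counts were 4 and 1. The uncentred median difference was -0.34, and the Tlr2 region did not pass without centring, with quantile normalization or without any 1 of the 4 libraries. At 2 of the 8 group-only regions the other group had a peak less than 1 kb away. The count of 8 became 14 and 16 without titled knockout replicate 1 and 2 and 19 without titled control replicate 1.

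BMDM exposed to DLL4 differed from untreated BMDM at regions of Tlr3, Tlr5, Tlr1 and Tlr7. The region 4.0 kb before Tlr3 had 187.5 and 182.0 with DLL4 and 110.6 and 108.6 without (0.71, SE 0.14, adjusted p = 0.00015). The Tlr5 region 7.0 kb past the gene had 123.5 and 123.8 with DLL4 and 158.5 and 176.0 without (-0.47, SE 0.14, adjusted p = 0.030). The Tlr5 region 3.1 kb before the gene had 50.9 and 50.6 with DLL4 and 86.6 and 71.8 without (-0.66, SE 0.19, adjusted p = 0.024). Another Tlr5 region, chr1:182937638-182938003, 16.7 kb before the gene, rose, with 22.5 and 26.7 with DLL4 and 8.60 and 9.63 without (1.30, SE 0.33, adjusted p = 0.0090).

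Near Tlr1, the region at 37.2 kb had 59.6 and 80.0 with DLL4 and 43.6 and 41.2 without (0.66, SE 0.20, adjusted p = 0.042). The neighbouring region at 39.3 kb had 40.0 and 36.9 with DLL4 and no peak in untreated BMDM. In Tlr7, the receptor for single-stranded RNA, chrX:167329094-167329397 fell, with 24.7 and 19.8 with DLL4 and 40.5 and 47.3 without (-0.99, SE 0.26, adjusted p = 0.014). No region of Tlr4, Tlr2, Tlr6, Tlr8, Tlr9 or Tlr13 passed.

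Of 75 tested regions, 3 were higher and 3 lower with DLL4, against 2.36% and 1.52% of all regions, with a median of 0.02 over TLR regions and 0.03 over all. With DLL4 only, a peak was present in 3 regions and without DLL4 only in 0 of 99, against 2.10% and 2.00% of all regions. The other 2 were chr1:182959134-182959505 in Tlr5 (10.9 and 10.9) and chr5:64934212-64934618 before Tlr1 (10.9 and 11.6), and untreated BMDM had a peak less than 1 kb from all 3. With an uncentred median difference of 0.03, 2 regions were higher and 1 lower both without centring, where neither of the Tlr5 decreases passed, and with quantile normalization, where the one at 3.1 kb did not. The calls became 2 without DLL4 replicate 1, 2 without DLL4 replicate 2, 0 without untreated replicate 1 and 2 without untreated replicate 2, and the Tlr3 region passed in all of these but the leave-out of untreated replicate 1. The group-only count of 3 became 7 and 8 without DLL4 replicate 1 and 2 and 6 and 12 without untreated replicate 1 and 2.

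**Figure D4:**
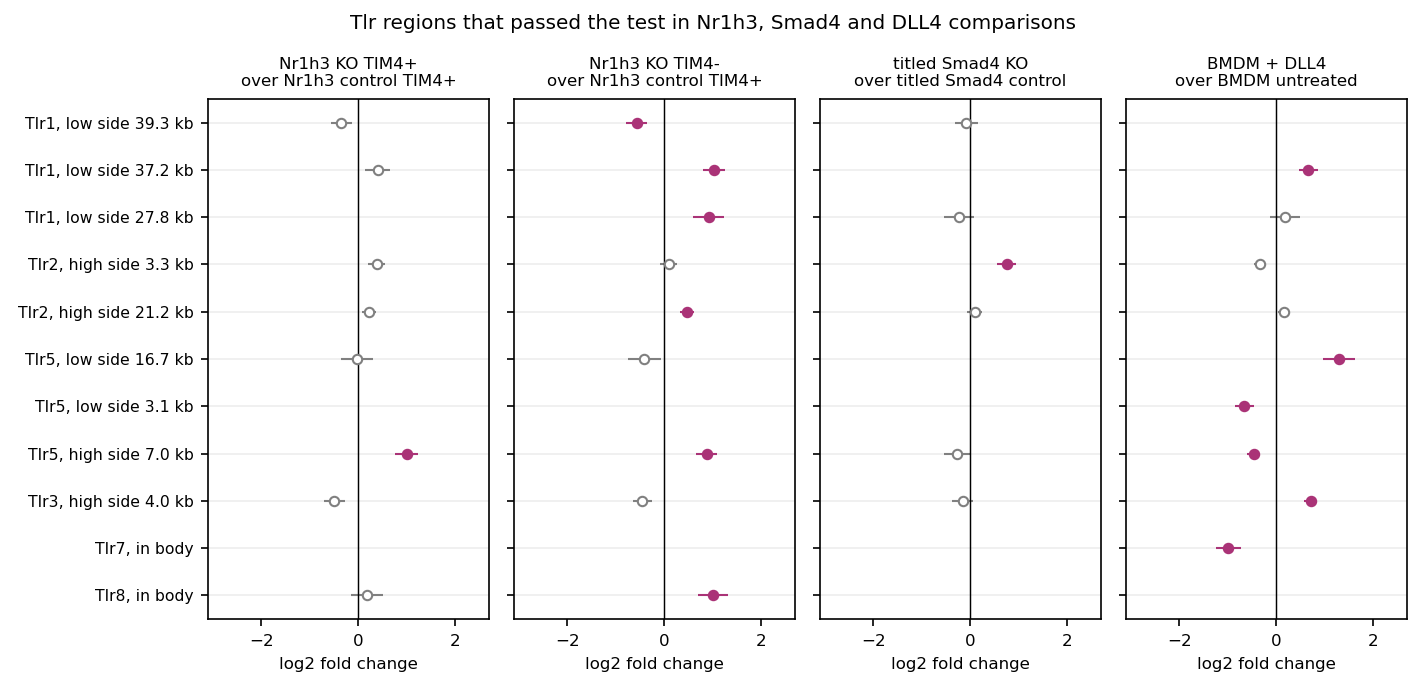
Log2 fold change (horizontal axis) with SE bars for TLR regions called in at least 1 of 4 comparisons: both Nr1h3 knockout populations over controls, libraries titled Smad4 knockout over titled control, and DLL4 over untreated. Filled points passed and open points did not; the Tlr5 point on the high side at 7.0 kb lies at 1.00 and 0.88 over the shared Nr1h3 controls and at -0.47 with DLL4.

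**Figure D5:**
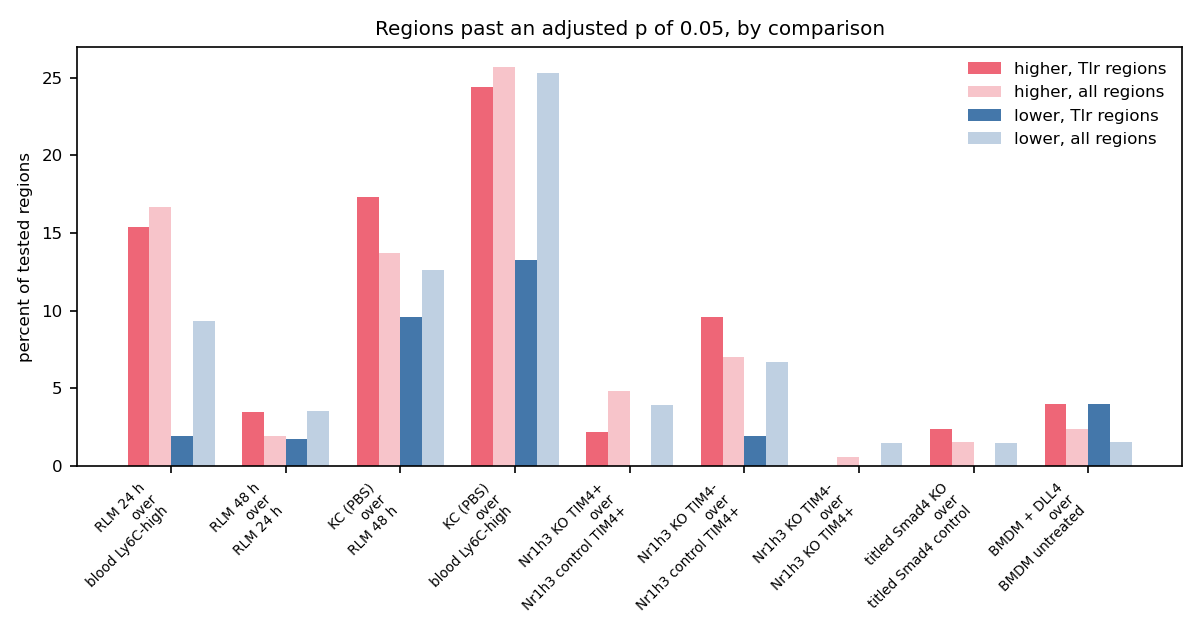
Percent of tested regions past the threshold in each comparison, with TLR regions in dark and all regions in pale bars, higher in red and lower in blue. KC over blood had the highest shares of the 9 comparisons, where 24.4% of TLR regions and 25.7% of all regions were higher.

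Within the set, the regions open in all 23 libraries differed in how much they varied over the groups. As centred log2 group means, the range over 11 groups had a median of 1.19 over these 31 TLR regions, against 1.26 over all 26618 such regions. The widest was the region inside Tlr4 at chr4:66843328-66843569 (2.69), which was highest in RLM at 24 h (1.15) and lowest in TIM4-positive knockouts (-1.54). It stood at 0.66 with DLL4 and 0.68 in untreated BMDM, and at -0.35 in KC. Next was the Tlr5 region 7.0 kb past the gene (2.48), with 1.50 in blood and -0.98 in libraries titled Smad4 knockout. The narrowest were both Tlr13 regions, with ranges of 0.43 and 0.39, and the strongest Tlr2 region with 0.55. Groups of different experiments were not tested against each other.

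The 3 genes whose regions were most like the Tlr4 region in pattern were Thbs1 (Pearson r 0.989, chr2:118111536-118111987), Nup133 (0.980) and Hmgb3 (0.979). The likeness was taken over the 11 centred group means, among 24943 regions that had a gene and were open in all libraries. The highest of so many values is high by selection, and the groups share experiments and library quality.

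Other genes of the TLR pathway were taken from a list of 41, which holds co-receptors and chaperones, adaptors, kinases and ligases, transcription factors, brakes, and the receptors Tlr11 and Tlr12. Regions of these genes were not followed without centring, with quantile normalization or without single libraries. In RLM at 24 h against blood, 29 of 199 tested regions were higher and 18 lower, where 16.7% and 9.33% of all tested regions were. The largest change was at Irf8, a transcription factor of monocyte and dendritic cell development, where a region had 165.7, 125.3 and 83.5 at 24 h and 15.5 and 21.1 in blood (2.93, SE 0.26). Cd36, a scavenger receptor that can act as co-receptor of Tlr2, had 108.6, 81.7 and 55.0 at 24 h and 10.6 and 14.1 in blood (2.86, SE 0.29). Irak2, a kinase below Myd88, rose by 1.76 (SE 0.31).

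At 48 h against 24 h, 8 of 206 tested pathway regions were higher and 3 lower, against 1.92% and 3.53% of all regions. A region of Lbp, which hands lipopolysaccharide to Cd14, had 105.5 and 135.7 at 48 h and 46.8, 50.8 and 21.8 at 24 h (1.49, SE 0.27). Irf5, a transcription factor of the inflammatory response, rose by 1.42 (SE 0.32). Irak3, a brake on Myd88 signalling, rose by 1.33 (SE 0.28) at a region with 63.6 and 71.1 at 48 h.

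In KC against 48 h, 9 of 209 were higher and 30 lower, against 13.7% and 12.6% of all regions, and 13 of the lower ones were among the 67 tested regions of kinases and ligases, the list with the most genes. The same Irak3 region fell to 11.4 and 20.1 in KC, against 63.6 and 71.1 at 48 h (-1.79, SE 0.30). Nfkb1, which encodes the p50 subunit of NF-kB, fell by 1.16 on the log2 scale at a region with 21.8 and 18.2 in KC and 48.8 and 63.8 at 48 h. A region of Tab2 rose, with 23.7 and 16.3 in KC and 15.7 and 5.87 at 48 h (1.23, SE 0.37). Against blood, 38 of 179 were higher and 39 lower in KC, where 25.7% and 25.3% of all regions were. The largest changes were at the same regions of Irf8 (91.0 and 126.5 in KC, 15.5 and 21.1 in blood) and Cd36 (80.6 and 65.2 in KC, 10.6 and 14.1 in blood), and at Irf5 (2.27, SE 0.32). The blood libraries are shared with the 24 h comparison. Of the 10 tested adaptor regions, 6 were lower and 0 higher in KC than in blood, beside the same shares of all regions.

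In the Nr1h3 experiment, 11 of 182 pathway regions were higher and 5 lower in TIM4-positive knockouts, against 4.86% and 3.91% of all regions. Cd36 had 65.7 and 90.8 in these knockouts and 45.7 and 40.9 in controls (1.13, SE 0.20), a region of Irak3 had 10.9 and 33.4 against 61.9 and 44.2 in controls (-1.09, SE 0.25), and a region of Irf8 had 23.6 and 18.4 against 61.3 and 48.9 in controls (-1.05, SE 0.24). In TIM4-negative knockouts 14 of 218 were higher and 13 lower, against 7.03% and 6.68% of all regions. Nfkb1 had 10.6 and 10.9 in these knockouts and 30.1 and 27.7 in controls (-1.75, SE 0.31), Ly86, the partner of Cd180, fell by 1.27 on the log2 scale, and Tnfaip3, a brake on NF-kB, fell by 1.20. Between TIM4-negative and TIM4-positive knockouts 1 of 189 was higher and 0 lower, against 0.607% and 1.50% of all regions. It was a region of Irak4, the first kinase to join Myd88, with 75.4 and 64.8 in TIM4-negative and 21.7 and 24.6 in TIM4-positive knockouts (0.81, SE 0.24, adjusted p = 0.040).

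In libraries titled Smad4 knockout, 2 of 180 pathway regions were higher and 1 lower, against 1.57% and 1.50% of all regions. A region of Ly96, the partner of Tlr4, had 23.4 and 37.2 in libraries titled knockout and 21.2 and 17.5 in those titled control (0.93, SE 0.27). At a region of Irf8 the levels were 37.4 and 45.9 against 24.2 and 39.9 in those titled control (0.74, SE 0.22, adjusted p = 0.045), which overlap before centring. A region of Rela, the p65 subunit of NF-kB, had 44.1 and 65.7 in libraries titled knockout and 101.7 and 116.4 in those titled control (-0.67, SE 0.16). With DLL4, 8 of 266 were higher and 2 lower, against 2.36% and 1.52% of all regions. Tlr12, a receptor for a parasite protein in mice, had 25.4 and 23.3 with DLL4 and 8.60 and 7.88 without (1.42, SE 0.33). Ticam2, which links Tlr4 to Ticam1, had 40.7 and 53.4 with DLL4 and 21.5 and 13.1 without (1.38, SE 0.28). Nfkb1 had 66.9 and 83.5 with DLL4 and 35.6 and 22.8 without (1.33, SE 0.22, adjusted p = 6.1e-06).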

How the data were processed

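ATAC-seq libraries were size-selected on a gel, per the labels' protocols. Bowtie2, HOMER and the mm10 build are named in the submitters' processing notes without versions. HOMER's findPeaks ran on 1 library at a time, per the file headers, with a size of 200 bp, a false discovery rate of 0.001 and a signal 4 times that of the surrounding 10000 bp. The deposited signal values are Normalized Tag Counts, which the authors' program scaled to 10000000 tags. The deposited score values are findPeaks scores, used here only to cut lists to equal length.

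Peaks on 19 autosomes and X that overlapped by at least 1 bp were merged, another 1205 of the 1605886 peaks were dropped, and the strongest peak gave a library's value. Genes came from RefSeq GRCm38.p6. That table gives no strand; strands came from a promoter table, which matched 8 of the 10 genes and has no entry for Tlr4 and Tlr7. limma 3.58.1 (R 4.3.3, mean-variance trend, two-sided) tested regions within each experiment, and it was tested on simulated data. Named were each gene's strongest and start region, regions past the threshold or in 1 group only (the 10 largest of each kind per comparison, others as counts), at most 3 pathway genes per comparison, and the 3 genes most like the most variable region. The members and lists were chosen with earlier results of these data known. Alternatives covered centring, quantile scaling, pseudocount, filters, merging, window, peak threshold, list length, left-out libraries and a replicate block.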

Additional observations from a re-analysis of the deposited data

How the results depend on the processing

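Counts of TLR regions are given as those past the threshold or in 1 group only. Without centring the changed counts moved to 4 (24 h over blood, from 9), 10 (KC over blood, from 17), 0 (TIM4-positive knockouts, from 1), 17 (TIM4-negative knockouts, from 6), 30 (between knockouts, from 0), 0 (Smad4, from 1) and 3 (DLL4, from 6). Quantile normalization gave 0 for 48 h over 24 h (from 3), 0 for Smad4 and 3 for DLL4, and sums of peaks gave 1 for 48 h over 24 h and 0 for Smad4. Fits over all libraries of an experiment gave 5 for 24 h over blood and 9 for KC over 48 h (from 14), and none could be made for Smad4 and DLL4, which have 2 groups each. A window of 10 kb left 77 of 128 regions and, with fewer regions, gave changed counts of 4 (24 h over blood), 1 (48 h over 24 h), 7 (KC over 48 h), 11 (KC over blood) and 2 (TIM4-negative knockouts). Its group-only counts were 3, 2, 6, 10, 5 (TIM4-positive knockouts, from 11), 7 (TIM4-negative knockouts, from 12), 5 (between knockouts, from 10) and 4 (Smad4, from 8).

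Peaks of at least 20 gave group-only counts of 2 for 48 h over 24 h, 3 for TIM4-positive knockouts, 1 for Smad4 and 5 for DLL4, and lists of equal length gave 6 for TIM4-positive knockouts, 5 between knockouts and 5 for Smad4. Leaving out each library in turn gave changed counts of 2 to 12, 0 to 4, 8 to 13, 16 to 18, 0 to 1, 3 to 4, 0 to 0, 0 to 1 and 0 to 2 in the order of the report. The group-only counts were then 6 to 11, 7 to 11, 17 to 23, 23 to 30, 15 to 18, 16 to 20, 12 to 21, 12 to 19 and 6 to 12, a looser rule by construction. Other causes were not tested. The 57 calls had 663 values under an alternative, of which none turned sign and 501 still passed. The values under the 10 kb window are those of the main fit and could only pass. A called region that an alternative did not test was left out of these counts.

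Replicate numbers are shared in the Nr1h3 and DLL4 groups. Same-numbered libraries deviated together with correlations of 0.009, -0.004, 0.061 and -0.038 only. With so few libraries, this cannot show whether they share an animal or a culture. With a replicate block, the counts were 1 for TIM4-positive knockouts, 6 for TIM4-negative knockouts, 0 between them and 6 for DLL4. A level near the threshold of 8 to 11 tags limits what a missing peak shows.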
